A study of Mus musculus with 3 samples.

Results

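Promoter regions of long non-coding RNA (lncRNA) genes were described in chromatin immunoprecipitation sequencing (ChIP-seq) of Runx1 in mouse spinal cord. A region was included where the authors' annotated table placed it in the class of promoters within 1 kb of a transcript start and assigned it to a gene of an lncRNA biotype. The 8 biotypes taken were lincRNA, lncRNA, antisense, processed transcript, sense intronic, sense overlapping, bidirectional promoter lncRNA and TEC, the last being loci annotated as still to be experimentally checked. This gave 886 of 15286 regions over the 3 replicates: 56 of 451 in replicate 1, 146 of 1641 in replicate 2 and 684 of 13194 in replicate 3, which was taken as the main set. The regions belonged to 53, 128 and 604 genes.

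All 3 replicates formed 1 group of male C57BL/6J mice aged 8 to 10 weeks, for which the labels name no transgene, deletion or treatment. The names of the deposited files carry the tag Sal, which the labels do not explain. Cells of perfused spinal cords were fixed in pools of 5 cords, and chromatin of 10 cords was pooled for each immunoprecipitation with a rabbit polyclonal Runx1 antibody, so a value describes a pool and not an animal. The labels do not say whether replicates came from separate animals, and the spread between replicates may be technical. The tissue field of replicate 3 holds the text on the antibody, so its title was used to place it in the group.

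Long non-coding RNAs are transcripts without a recognised protein product, and many have no known role. Many arise beside a coding gene, either running away from a shared promoter in the opposite direction (a divergent or head-to-head pair) or lying on the strand opposite the coding gene. Runx1 is a DNA-binding factor of the runt family, best known in blood formation and in myeloid cells, of which microglia are the form resident in the central nervous system.

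The promoters of the lncRNA genes that most plainly lay under a region in every replicate are shown first. RefSeq promoter windows, of 250 bases before to 50 after a gene's start, were available for 258 of the 604 genes of replicate 3. For 6 genes such a window lay under a region of that gene in each of the 3 replicates, and these were selected after the values were seen. The sequences are those of RefSeq on GRCm38.p6, each read 5′ to 3′ on the strand of its gene, and capitals mark the E-box CACGTG, a hexamer bound by basic helix-loop-helix factors.
B930059L03Rik: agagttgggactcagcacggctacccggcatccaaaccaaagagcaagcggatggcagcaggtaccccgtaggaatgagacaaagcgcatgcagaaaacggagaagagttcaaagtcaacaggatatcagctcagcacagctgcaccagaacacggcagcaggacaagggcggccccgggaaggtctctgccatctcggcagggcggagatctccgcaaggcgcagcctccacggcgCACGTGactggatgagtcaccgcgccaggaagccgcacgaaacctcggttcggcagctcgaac
Gm31812: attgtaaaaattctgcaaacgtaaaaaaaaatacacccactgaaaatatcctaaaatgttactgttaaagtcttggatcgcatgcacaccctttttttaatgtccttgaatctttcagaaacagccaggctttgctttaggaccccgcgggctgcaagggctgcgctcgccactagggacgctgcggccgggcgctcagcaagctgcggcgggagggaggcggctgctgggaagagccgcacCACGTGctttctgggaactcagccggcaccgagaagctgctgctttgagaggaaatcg
1700113A16Rik: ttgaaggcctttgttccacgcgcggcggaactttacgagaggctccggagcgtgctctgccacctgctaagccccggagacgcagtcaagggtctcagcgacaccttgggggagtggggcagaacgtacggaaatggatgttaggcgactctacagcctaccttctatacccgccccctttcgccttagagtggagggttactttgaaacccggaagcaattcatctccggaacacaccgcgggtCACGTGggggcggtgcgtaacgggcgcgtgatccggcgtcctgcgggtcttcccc
Lncpint: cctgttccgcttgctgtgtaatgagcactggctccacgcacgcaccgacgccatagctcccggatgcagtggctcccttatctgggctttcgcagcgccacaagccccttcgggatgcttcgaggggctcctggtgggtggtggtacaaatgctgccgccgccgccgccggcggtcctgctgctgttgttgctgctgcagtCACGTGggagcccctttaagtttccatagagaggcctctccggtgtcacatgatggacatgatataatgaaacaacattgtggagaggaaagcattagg
Gm12758: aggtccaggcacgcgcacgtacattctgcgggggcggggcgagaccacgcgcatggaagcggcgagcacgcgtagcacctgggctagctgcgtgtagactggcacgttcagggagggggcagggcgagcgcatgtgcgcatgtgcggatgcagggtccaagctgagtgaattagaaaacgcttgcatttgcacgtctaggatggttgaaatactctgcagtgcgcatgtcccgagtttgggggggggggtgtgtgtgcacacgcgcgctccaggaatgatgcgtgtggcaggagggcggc
Gm4258: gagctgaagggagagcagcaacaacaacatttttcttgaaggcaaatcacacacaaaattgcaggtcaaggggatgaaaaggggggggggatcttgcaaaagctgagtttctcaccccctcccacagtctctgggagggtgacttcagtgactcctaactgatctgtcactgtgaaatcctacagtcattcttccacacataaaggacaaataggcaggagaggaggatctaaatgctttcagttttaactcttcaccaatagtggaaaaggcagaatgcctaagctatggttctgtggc

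These windows are chr12:110591124-110591423 on the plus strand for B930059L03Rik, chr1:52113841-52114140 on the minus strand for Gm31812, chr3:88177736-88178035 on the minus strand for 1700113A16Rik, chr6:31218425-31218724 on the minus strand for Lncpint, chr7:34234127-34234426 on the plus strand for Gm12758 and chr1:137898214-137898513 on the plus strand for Gm4258. Gm4258 had 3 such windows, of which 1 is shown. An E-box was present in 4 of the 6 windows, and a RUNX hexamer (TGTGGT or TGCGGT on either strand) in 0 of the 6. Over all RefSeq windows the E-box was present in 7.15% and either RUNX hexamer in 22.4%. With 6 windows, selected after the values were seen, these counts describe the windows shown only. In Gm31812 the E-box lay 6 bp, 44 bp and 18 bp from the strongest summit of the region over the window in replicates 1, 2 and 3. In 1700113A16Rik these distances were 18 bp, 224 bp and 22 bp, in Lncpint 66 bp, 238 bp and 76 bp, and in B930059L03Rik 380 bp, 420 bp and 364 bp. The strongest summit therefore lay beside the E-box in some of these promoters and well apart from it in B930059L03Rik. Gm4258 had the window of lowest CpG content of the 6, with a ratio of observed to expected CpG of 0, against 0.698 to 0.993 in the other 5.

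Sequencing depth was available only as a rough relative estimate, of 1, 1.07 and 1.52 for replicates 1, 2 and 3. This is the lowest background solved from the peak caller's values, divided by the width of the narrowest region. The lowest backgrounds were 2.23, 2.67 and 3.13, and the narrowest widths 232, 260 and 213 bp. Whether these stand for genome background and fragment length was not tested. Markers of cord cell types were checked among coding genes, as promoter regions and not as expression. In replicate 3 the promoters of 15 of 15 oligodendrocyte genes, 11 of 15 neuronal, 3 of 10 astrocyte, 2 of 15 microglial and 0 of 12 endothelial, mural and meningeal genes had a region. In replicate 2 the counts in this order were 9, 2, 2, 1 and 0, and in replicate 1 they were 0, 2, 0, 0 and 0. Over all RefSeq coding genes 28.3%, 4.33% and 1.37% had a promoter region in replicates 3, 2 and 1. In replicate 3 the astrocyte count therefore lay near the background. There the microglial count (13.3%) and the endothelial, mural and meningeal count lay below it, and the oligodendrocyte and neuronal counts above it. The replicates differ in the length of their lists and in the marker promoters they hold, and the results on lncRNA promoters are given for each.

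The first question was what kinds of lncRNA gene made up these regions and how large a share of all promoter regions they were. Intergenic and antisense genes were the most frequent kinds in every replicate. In replicate 3 there were 242 regions of lincRNA genes (35.4%), 191 of antisense genes (27.9%), 133 of processed transcripts (19.4%), 94 of TEC loci (13.7%), 16 of bidirectional promoter lncRNAs and 8 of sense intronic genes. Replicate 1 had 21 lincRNA and 18 antisense regions, and replicate 2 had 53 and 41. The biotypes lncRNA and sense overlapping had 0 regions in each replicate. Most of the genes carry provisional names: of 659 genes with a region in any replicate, 87.9% were named Gm, Rik or by identifier only.

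Regions of lncRNA genes were 15.01% of the promoter regions of replicate 1 (56 of 373, 95% Wilson interval 11.75 to 18.99), 12.5% in replicate 2 (146 of 1172, 10.7 to 14.5) and 8.28% in replicate 3 (684 of 8256, 7.71 to 8.90). The mean was 11.9% ± 3.40 (SD, n = 3). The interval of replicate 3 did not overlap those of replicates 1 and 2, while those of replicates 1 and 2 overlapped each other. The intervals cover counting error only. Among the 373 promoter regions of highest fold, the number in replicate 1, the share was 13.9% in replicate 2 and 12.1% in replicate 3 (9.14 to 15.8), and its interval overlapped that of replicate 1 at this equal length of list. Among the 1172 of highest fold, the number in replicate 2, the share in replicate 3 was 8.11% (6.68 to 9.81), below the interval of replicate 2. Of all regions assigned to lncRNA genes, 62.9%, 58.2% and 37.6% in replicates 1, 2 and 3 were within 1 kb of a start, against 89.7%, 76.6% and 71.3% for coding genes. A region covered the annotated start itself in 48.2%, 48.6% and 55.3% of lncRNA promoter regions, against 72.4%, 68.2% and 71.7% of coding ones.

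**Figure D1:**
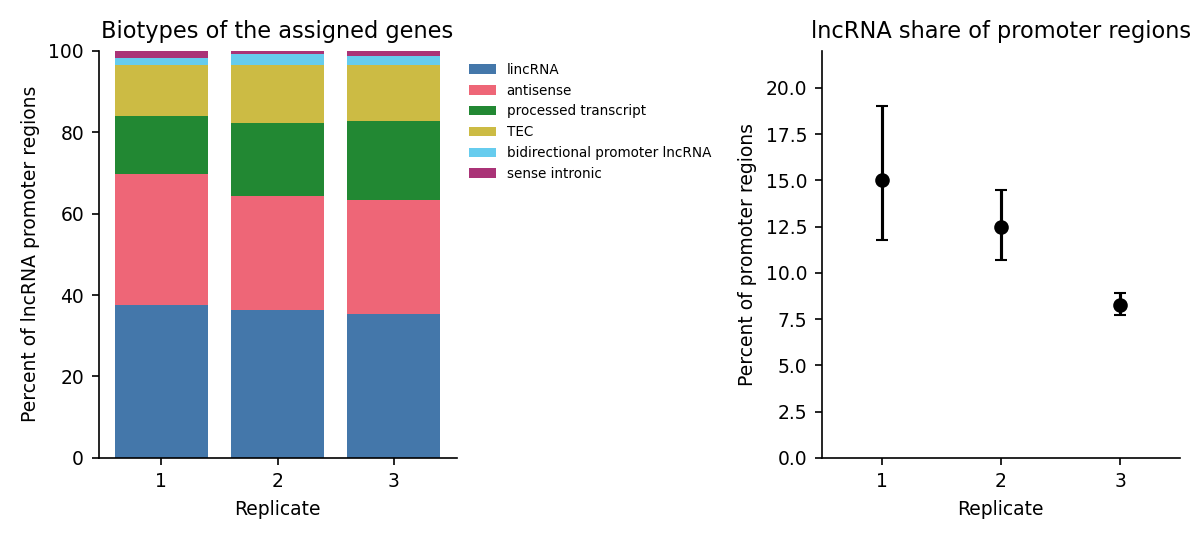
The left panel shows the percent of lncRNA promoter regions in each biotype of the assigned gene, for replicates 1, 2 and 3. The right panel shows lncRNA regions as a percent of all promoter regions, with 95% Wilson intervals of counting error, which was 15.01%, 12.5% and 8.28% in replicates 1, 2 and 3.

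The limit of 1 kb that defines the class cuts through a continuous range of distances. Just inside it in replicate 3 were Gm5602 and Gm14243, each at -1000 bp, upstream of a start, with folds of 3.39 and 3.87. Just outside were a region of 3110039I08Rik at 1008 bp (fold 3.75) and one of Gm15050 at -1021 bp, upstream of the start (fold 4.60). In all, 123 lncRNA regions of replicate 3 were classed as 1 to 2 kb from a start and are not members.

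The strength of the regions was compared with that of coding promoters, since the rule for members did not use fold. Regions of both kinds had passed the same limit of the peak caller. The comparison therefore covers called regions and not lncRNA and coding promoters in general. Fold is the authors' enrichment over background at a region's strongest summit. Median fold was 4.86, 4.11 and 3.75 for lncRNA promoters in replicates 1, 2 and 3, and 4.88, 3.98 and 3.85 for coding promoters (315, 1007 and 7428 regions). The differences of median log2 fold, lncRNA minus coding, were -0.01, 0.05 and -0.04. Their mean was 0.00077 ± 0.04 (SD, n = 3), with p = 1 in an exact two-sided sign-flip permutation test over replicates, where the smallest possible p is 0.25. The difference was smaller than the spread between replicates and changed sign among them.

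A fold of at least 5 was reached by 24 of 56 lncRNA promoter regions in replicate 1 (42.9%), 30 of 146 in replicate 2 (20.5%) and 129 of 684 in replicate 3 (18.9%). Over all regions of each replicate the shares were 45%, 16.5% and 20.7%, so the lncRNA promoters lay near the background in each list. The folds of replicate 3 ran from 2.05 to 18.2 with quartiles of 3.21 and 4.67.

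**Figure D2:**
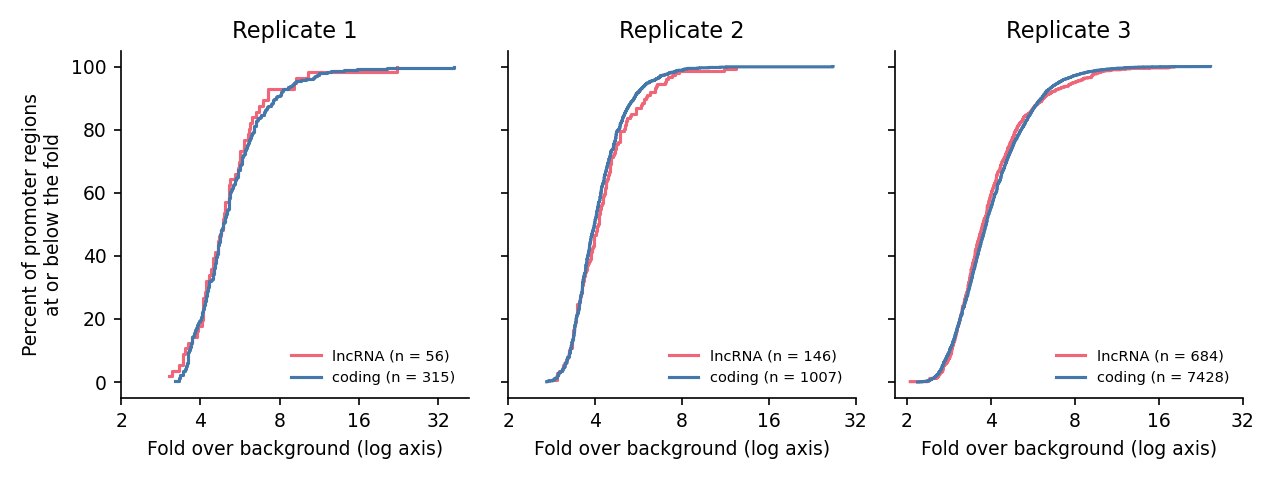
Each panel shows, for 1 replicate, the percent of promoter regions at or below a given fold over background (log axis) for lncRNA genes and for coding genes. The curves lie close together in each replicate, with medians of 4.86 and 4.88, 4.11 and 3.98, and 3.75 and 3.85.

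Median width was 362, 485 and 491 bp for lncRNA promoters and 334, 430 and 515 bp for coding promoters. The log2 differences were 0.12, 0.17 and -0.07, with a mean of 0.07 ± 0.13 (SD, n = 3) and p = 0.50 in the exact sign-flip permutation test. The mean difference was larger among stronger regions, at 0.26 with −log10 q of at least 5 and 0.42 with fold of at least 5 (each positive in 3 of 3 replicates, exact permutation p = 0.25, the smallest possible). It was 0.18 among regions without another coding start within 1 kb (exact permutation p = 0.50). Widths of at least 2 kb were found in 0 of 56, 9 of 146 (6.16%) and 41 of 684 (5.99%) lncRNA promoters, beside 0%, 1.95% and 2.69% of all regions and 0%, 1.49% and 3.66% of coding promoters. Among promoter regions at least 2 kb wide, lncRNA genes were 9 of 25 in replicate 2 (36.0%) and 41 of 318 in replicate 3 (12.9%, 9.65 to 17.02), against 7.46% of those from 500 bp to under 2 kb wide in replicate 3. The wide regions hold several summits and were counted once each.

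Some of the strongest lncRNA promoters of replicate 3 combined high fold with long stretches of signal, and others were narrow. The highest fold belonged to 2810410L24Rik (ENSMUSG00000075389, chr11:120183819-120191099), a processed transcript, at 18.2 (95% counting interval 14.98 to 21.93) over 7281 bp with 18 summits. Its fold was 3.88 in replicate 1 and 6.996 in replicate 2, where the region was 338 bp and 1960 bp wide. Second was B930059L03Rik at 17.5, in a region of 912 bp. The next was Frmd8os (ENSMUSG00000043488), which lies antisense to the coding gene Frmd8, at 17.3. The region of Frmd8os was 615 bp wide in replicate 1, 2123 bp in replicate 2 and 6961 bp in replicate 3 (chr19:5842114-5849074). In replicates 2 and 3 it also covered an end of the RefSeq gene Neat1, the scaffold RNA of nuclear paraspeckles, so the table's assignment to Frmd8os does not separate these genes.

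Gm26698 (ENSMUSG00000097208, chr12:86893543-86895560), whose nearest coding start was Irf2bpl at 8729 bp, had a fold of 14.8 in replicate 3. It shows how the class depends on the called edge. In replicates 1 and 2 a region at the same place, 574 bp and 519 bp wide with folds of 10.5 and 7.62, was classed as 1 to 2 kb from the start (-1919 bp and -1933 bp relative to it) and was therefore not a member, while the region of replicate 3, 2018 bp wide, began at -975 bp.

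The remaining genes among the 8 of highest fold in replicate 3 were ENSMUSG00000116793 (12.7), Mir99ahg (12.1), Gm28609 (11.6), which lies within the coding gene Pik3c2b, and 1810026B05Rik (10.8), 12372 bp from the start of the chromatin remodeller gene Chd2. In replicate 2 their folds were 3.40, 4.21, 3.62 and 7.58, and 0 of the 4 had a promoter region in replicate 1.

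The widest lncRNA promoter region was one of C130071C03Rik, at chr13:83731361-83743088 with 28 summits over 11728 bp and a fold of 10.2. This gene contains the microRNA gene for miR-9, a regulator of neural progenitors. The next was assigned to Gm20417 at chr19:5793276-5804465, with 11190 bp, 23 summits and a fold of 9.20. This region also covered an end of Malat1, an abundant nuclear RNA, which was itself a member in replicate 1 (fold 3.04) and replicate 2 (4.25) but had no promoter region under its own name in replicate 3. Then followed 9430053O09Rik with 7879 bp (fold 9.29), Sox2ot with 7467 bp (10.0) and 2810410L24Rik with 7281 bp. Sox2ot is a transcript whose locus contains Sox2, a transcription factor gene of neural progenitors.

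Most lncRNA genes of replicate 3 had 1 promoter region (548 genes), and 56 had 2 or more. The genes with most regions were Mir99ahg with 7, 3110039I08Rik with 6, and Lncpint, 8430419K02Rik, Mir124a-1hg and C130071C03Rik with 4 each. Of these, Mir99ahg, Mir124a-1hg and C130071C03Rik were counted here as hosts of microRNAs. Whether hosts have more regions than other lncRNA genes was not tested. Regions of the same gene share a locus and were not taken as independent.

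Whether the same lncRNA promoters were found again in other replicates was asked by overlap of at least 1 bp. By this measure nearly all regions of the 2 short lists met one of the long list. Replicate 3 held 55 of the 56 regions of replicate 1 (98.2%, 90.6 to 99.7) and 139 of the 146 of replicate 2 (95.2%, 90.4 to 97.7). The latter share was 43.8% when the strongest summits had to lie within 200 bp and 23.3% when 50% of both regions had to overlap. The exceptions were A330102I10Rik in replicate 1 and 1700101I11Rik, Gm46430, Gm4793, Gm32391, Snhg6, Gm33680 and Gm49482 in replicate 2, with folds of 3.45 to 4.89, named after their values were seen. Over all regions replicate 3 held 94.7% of replicate 1 and 92.1% of replicate 2. Of the 684 lncRNA promoters in replicate 3, 89 (13.0%) met a region of replicate 2 and 40 (5.85%) one of replicate 1, beside 10.4% and 3.11% of all its regions.

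A region of at least 1 other replicate was overlapped by 98.2%, 95.2% and 15.5% of lncRNA promoters in replicates 1, 2 and 3. For all regions the shares were 95.3%, 92.3% and 11.7%, and for coding promoters 95.2%, 92.3% and 14.6%. The difference from coding promoters was 2.98, 2.95 and 0.917 percentage points, with a mean of 2.28 ± 1.18 (SD, n = 3) and p = 0.25 in the exact sign-flip permutation test, the smallest this design allows. The sign was positive in 3 of 3 replicates, but it turned negative where overlap of 50% of both regions was required (mean -8.96 points). Overlap is mutual, so the 3 values depend on each other. Regions overlapping both other replicates were 57.1%, 19.2% and 3.36% of lncRNA promoters, beside 54.5%, 14.6% and 1.81% of all regions.

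The shared regions of replicate 3 were stronger and wider than the rest of the list. The 106 lncRNA promoters shared with another replicate had a median fold of 5.32 and a median width of 1000.5 bp, and the 578 found only in replicate 3 had 3.62 and 459.5 bp. Among coding promoters the medians were 5.25 and 864 bp for shared regions and 3.72 and 475 bp for the rest.

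A lncRNA promoter region found again was often assigned to another gene. The share of such changes among coding promoters or over all regions was not counted. Whether they are more frequent for lncRNA promoters was therefore not tested. Of the 55 regions of replicate 1 with a counterpart in replicate 3, 35 kept the same gene (63.6%), 18 met a region assigned to a coding promoter (32.7%) and 2 met one of another lncRNA gene. Of 139 regions of replicate 2, 82 kept the gene (59.0%), 46 met a coding promoter region (33.1%), 7 another lncRNA and 4 a region of another kind. The median width of the counterpart in replicate 3 was 1246 bp for regions of replicate 2 that kept their gene and 2596 bp for those that met a coding promoter, and from replicate 1 it was 805 bp and 1936.5 bp.

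By gene, 55 of the lncRNA genes with a promoter region in replicate 1 or 2 had none in replicate 3. For 39 of these 55 genes the place was covered in replicate 3 by a region assigned to a coding promoter, for 7 by one of another lncRNA gene, for 1 (Mir124-2hg) by a region assigned to the microRNA gene Mir124a-2, and for 8 by no region. The strongest was Gm12905, with folds of 6.91 and 7.41 in replicates 1 and 2, whose region of replicate 2 lies 59 bp from the start of Rragc, a Rag GTPase gene of lysosomal nutrient sensing. The region of replicate 3 there was 888 bp wide with a fold of 9.78 and was assigned to Rragc. Gm42692 (7.17 in replicate 2) fell within a region of 21957 bp assigned to Sox2, Gm44686 (4.322 and 6.505) within 6623 bp assigned to Chd2, and 2900052L18Rik (5.84 and 5.90) within 13282 bp assigned to Bahcc1. Gm43403 (6.12 in replicate 1) met a region assigned to the gene of a histone H2A variant, H2az1 in RefSeq and H2afz in the table. Junos, Tspan2os and Nkx2-2os, transcripts opposite the coding genes Jun, Tspan2 and Nkx2-2, likewise met regions assigned to those genes. A missing name in replicate 3 was therefore, in 47 of 55 cases, not a missing region.

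The lncRNA genes with promoter regions in every replicate numbered 22 of 659. Another 82 genes had one in exactly 2 replicates and 555 in 1, of which 505 were in replicate 3 only. For 17 of the 22 genes the regions also overlapped across all replicates, and 7 of the 22 reached a fold of 5 or more throughout.

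B930059L03Rik (ENSMUSG00000113361), a lincRNA gene 9379 bp from the start of the dynein heavy chain gene Dync1h1, came first when genes were ordered by their weakest percentile among the replicates. Its fold was 22.2 in replicate 1 (95% counting interval 17.9 to 27.3, from a summit pileup of 89 fragments), 12.3 in replicate 2 (9.35 to 16.0, pileup 55) and 17.5 in replicate 3 (15.1 to 20.2, pileup 184). The region of replicate 3 spanned chr12:110591105-110592016.

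Gm36967 (ENSMUSG00000103066), a TEC locus 33183 bp from the start of Snap25, the gene of a synaptic vesicle fusion protein, had folds of 10.3, 6.19 and 9.18 in replicates 1, 2 and 3. Gm32569, an antisense gene, had 9.18, 7.05 and 5.69. Frmd8os had 6.67, 11.2 and 17.3; its region was also widest in replicate 3. The counting intervals of Frmd8os in replicate 1 (4.54 to 9.48) and replicate 3 (14.4 to 20.8) did not overlap, so its values differed by more than counting error.

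Gm12758 had folds of 6.48, 5.04 and 6.64. This gene lies head to head with Gpi1, the glucose-6-phosphate isomerase gene, whose start was 3281 bp away, and its region also covered an end of the lncRNA gene Gm12762. 2900072N19Rik had 7.21, 5.54 and 5.24. 2410080I02Rik, 4436 bp from the start of the Kruppel-like factor gene Klf9, had 5.14, 6.56 and 8.14, and it completes the 7 genes with a fold of at least 5 in every replicate.

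For the lincRNA gene Gm31812, folds were 4.47, 6.45 and 5.97. For 1700113A16Rik, with Mef2d as the nearest coding gene at 35220 bp, they were 5.86, 4.05 and 5.63. Gm4258 had 4.72, 7.79 and 8.59, and its nearest coding start, that of the leukocyte phosphatase gene Ptprc, was 271284 bp away. Its region was 530 bp wide in replicate 1 and 5923 bp in replicate 3. Gm40841 had 7.22, 3.97 and 4.50 in a narrow region of 368 bp in replicate 3, and 1600020E01Rik, head to head with the RNA-binding protein gene Pcbp1, had 4.85, 3.67 and 6.10.

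**Figure D3:**
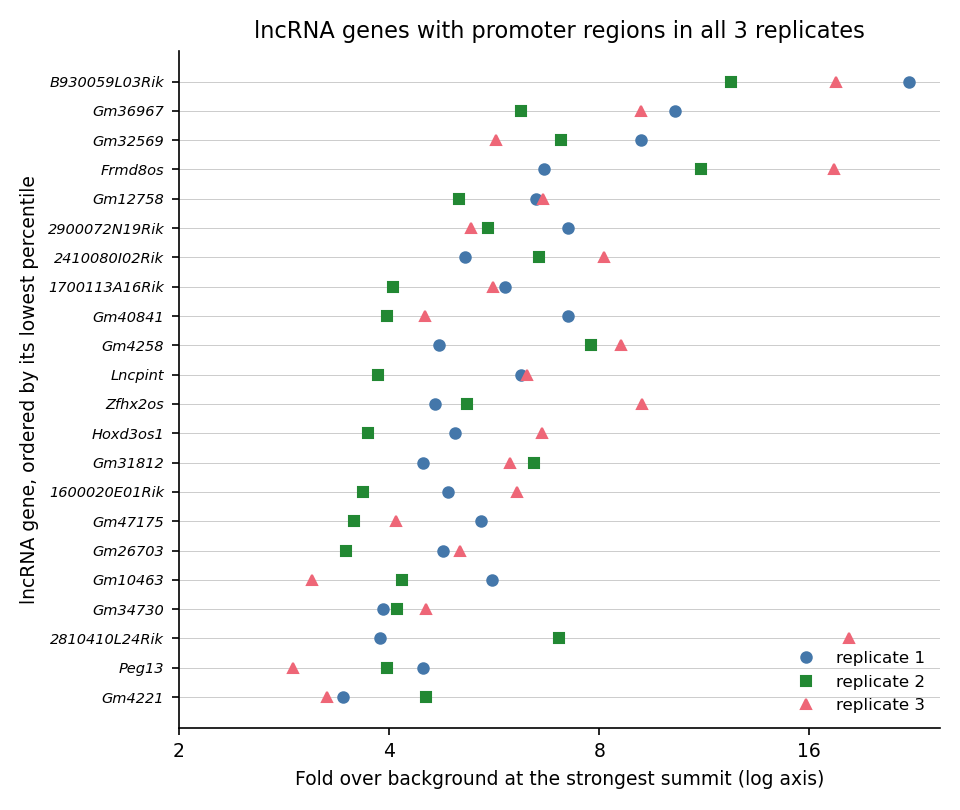
Fold over background at the strongest summit (log axis) is plotted for the 22 lncRNA genes with a promoter region in every replicate, with 1 symbol per replicate, ordered from the top by each gene's weakest percentile. B930059L03Rik lies furthest to the right in replicates 1 and 2, and 2810410L24Rik has the widest spread, with 3.88 in replicate 1 and 18.2 in replicate 3.

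The place of these regions beside coding genes was measured from the start of the nearest other coding gene. The lncRNA promoters lay within 1 kb of such a start in 16 of 56 in replicate 1 (28.6%, 18.4 to 41.5), 38 of 146 in replicate 2 (26.03%, 19.6 to 33.7) and 170 of 684 in replicate 3 (24.9%, 21.8 to 28.2). The mean was 26.5% ± 1.9 (SD, n = 3). Over all regions the shares were 13.3%, 9.38% and 7.23%, and coding promoters lay within 1 kb of another coding gene's start in 13.3%, 11.0% and 10.1% of cases. The share for lncRNA promoters was above both in each replicate. Its mean was 12.9% when the limit was 250 bp, 33.2% at 2000 bp, and 11.3% among regions with a fold of at least 5. The last rests on 3 of 24, 2 of 30 and 19 of 129 regions in replicates 1, 2 and 3. In replicates 1 and 2 this lay below the shares of all regions and of coding promoters at any fold. Shares of those sets at the other limits, and of all annotated lncRNA starts, were not compared. Starts were known for 85.9% of 21900 coding genes, so these shares are lower limits.

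The neighbouring coding gene lay on the opposite strand in 15 of 16, 38 of 38 and 161 of 170 cases. The genes ran head to head in 11 of 16, 26 of 38 and 93 of 170 (68.8%, 68.4% and 54.7%). For coding promoters within 1 kb of another coding gene's start, the opposite strand was found in 95.2%, 93.7% and 93.6%. Their head-to-head shares were 73.8%, 77.5% and 74.8%. Opposite strands were thus the rule for both kinds of gene, and head-to-head shares were lower for lncRNA promoters in each replicate. Of the antisense genes' regions in replicate 3, 38.2% were within 1 kb of another coding start and 73.8% lay inside the body of a coding gene. For lincRNA genes these shares were 14.0% and 16.9%, biotypes that are themselves defined by position. Of the 16 regions of bidirectional promoter lncRNAs, 15 lay within 1 kb of a coding start.

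Examples were chosen as those of highest fold within 1 kb of a coding start in replicate 3, after their values were seen. 4930483J18Rik lay 73 bp from the start of Mrtfa, the gene of an actin-regulated transcription cofactor, with a fold of 9.15. The region of Gm9929 covered the start of Atf6, a stress-response transcription factor gene of the endoplasmic reticulum, with 8.05. The region of 5031425E22Rik covered that of Kmt2e with 7.73. Where a region covers or adjoins a coding start, the data do not separate signal at the lncRNA promoter from signal at the coding promoter.

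Median log2 fold of lncRNA promoters within 1 kb of a coding start minus that of the others was -0.16, 0.00064 and -0.08 in replicates 1, 2 and 3 (mean -0.08 ± 0.08 SD, n = 3, p = 0.50 in the exact sign-flip permutation test). Promoters near a coding start reached a fold of at least 5 in 3 of 16 (18.75%), 2 of 38 (5.26%) and 19 of 170 cases (11.2%). The others did so in 21 of 40 (52.5%), 28 of 108 (25.9%) and 110 of 514 (21.4%). Over all regions the shares were 45%, 16.5% and 20.7%. The medians differed by no more than the spread between replicates. The share with a fold of at least 5 was lower near a coding start in each replicate, a difference that was not tested.

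For lncRNA promoters further than 1 kb from a coding start, the nearest coding gene had a promoter region of its own in 7.50%, 28.7% and 59.9% of cases in replicates 1, 2 and 3. For coding promoters with the same condition these shares were 3.66%, 7.92% and 45.9%, and over all RefSeq coding genes 1.37%, 4.33% and 28.3%. The distances to the neighbour were not matched between these sets. A coding gene without a promoter window had a known start only if it had a region in some replicate. Starts were known for 18818 of the 21900 RefSeq coding genes. The rest could not be a neighbour but count in the shares over all RefSeq coding genes. Both sets of neighbour shares are therefore raised against those shares by construction.

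**Figure D4:**
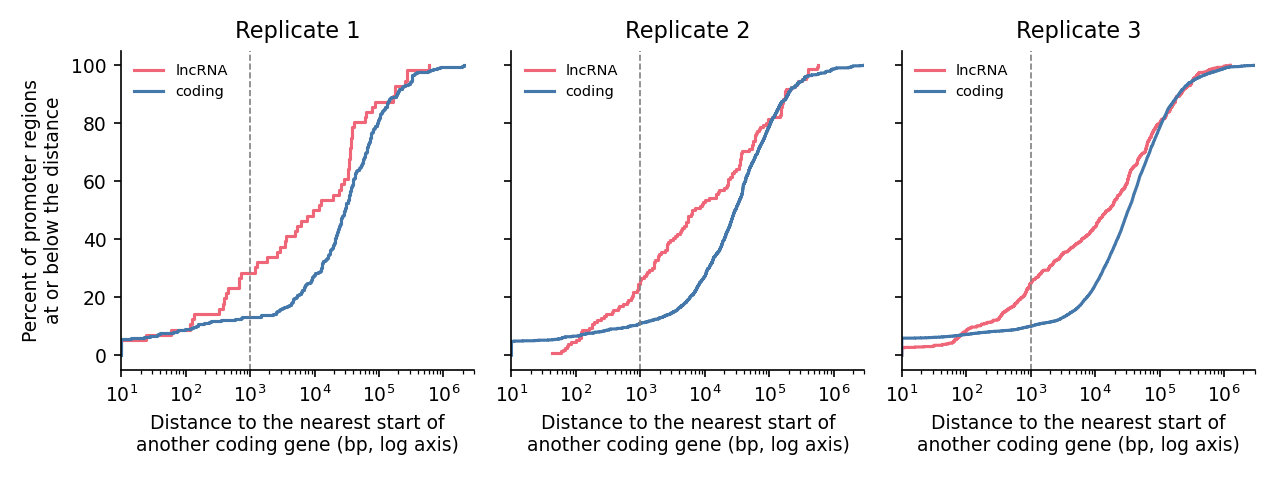
Each panel shows, for 1 replicate, the percent of promoter regions at or below a given distance (bp, log axis) to the nearest start of another coding gene, for lncRNA and coding promoters. At 1 kb, the dashed line, the lncRNA curve stands at 28.6%, 26.03% and 24.9% and the coding curve at 13.3%, 11.0% and 10.1%.

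Studied lncRNA genes were counted by role in 6 lists of 89 genes. Over 12731 lncRNA genes of RefSeq, 0.283%, 0.644% and 2.58% had a promoter region in replicates 1, 2 and 3. Every list stood above these shares in replicate 3, with 30.0% to 70.0% of its genes. Members were matched to RefSeq by symbol, and those without a match do not enter the RefSeq shares. The lists were drawn up with earlier results of these data known, and no list was tested.

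Of 10 HOX cluster transcripts, which lie between the homeobox genes of axial patterning, 1, 3 and 7 had a promoter region in replicates 1, 2 and 3. Hoxd3os1 was the 1 found in every replicate, with folds of 4.97, 3.73 and 6.63, and its region in replicate 3 covered 4463 bp and the start of Hoxd3. Hoxb3os had 4.67 and 4.41 in replicates 2 and 3, Hoxb5os 3.37 and 3.72, and Hoxaas2 4.98 in replicate 3 only. Taking the strongest region of each gene, the median fold of this list in replicate 3 was 4.32, against 3.77 over all 604 lncRNA genes.

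Of 20 transcripts beside neural transcription factor genes, 1, 5 and 6 had a promoter region. Zfhx2os, opposite the zinc-finger homeobox gene Zfhx2, had folds of 4.65, 5.17 and 9.23. Sox2ot had 5.78 in replicate 2 and 10.0 in replicate 3. Pantr2 and Pantr1, on the opposite strand to the POU factor gene Pou3f3, had 5.93 and 5.81 in replicate 2 and 9.60 and 5.88 in replicate 3. The median over the strongest region of each gene in replicate 3 was 7.55, and 0 of its genes other than Zfhx2os had a promoter region in replicate 1.

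Of 15 microRNA host genes, 0, 4 and 5 had one, with a median of 8.55 over the strongest region of each gene in replicate 3. These 5 genes had 1 to 7 regions each, and a maximum over more regions can be higher. Mir99ahg had 4.21 and 12.1 in replicates 2 and 3, C130071C03Rik 6.43 and 10.7, and Mir22hg 4.55 and 5.18. Dleu2, host of a microRNA gene cluster, had 8.55 in replicate 3 only. Of 21 hosts of small nucleolar RNAs, 0, 4 and 7 had one, with a median of 3.65 in the same measure and 1 or 2 regions each. Snhg5 had 3.48 and 3.80 in replicates 2 and 3, Snhg12 2.99 and 3.37, and Snhg8 3.62 and 3.25. Epb41l4aos had 5.20 in replicate 3 only.

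Of 14 nuclear and imprinted lncRNAs, 3, 2 and 5 had a promoter region. Peg13, an imprinted transcript within Trappc9, was found in every replicate, with folds of 4.47, 3.98 and 2.91. Miat had 5.18 in replicate 1 and 2.99 in replicate 3. The transcripts of the X chromosome Firre, Ftx and Jpx had 6.74, 6.54 and 6.06 in replicate 3 and none in replicates 1 and 2. Ftx and Jpx are genes of the X inactivation centre. Of 9 other studied genes, 1, 2 and 3 had one: Lncpint, a transcript induced by p53, had 6.18, 3.86 and 6.31, Tug1 4.03 and 4.58 in replicates 2 and 3, and Pvt1, the neighbour of Myc, 3.07 in replicate 3.

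The sequence was read from RefSeq lncRNA windows of 300 bases lying under members: 21 windows in replicate 1, 50 in replicate 2 and 216 in replicate 3. They belonged to 19, 44 and 193 genes, which need not be the genes the regions were assigned to. In replicate 3, 162 of these genes were themselves among the 604 genes with a region. Several windows of a gene or region are not independent, which the intervals do not take into account. Windows under regions were richer in CpG than other lncRNA windows. The ratio of observed to expected CpG had a median of 0.814, 0.702 and 0.660 in the 3 replicates, against 0.228 in 10768 lncRNA windows without a region in any replicate, and median GC content was 60.7%, 58.3% and 56.7% against 48.0%. A ratio of at least 0.6 was found in 85.7%, 64.0% and 55.1% of the windows under regions and in 9.71% of those without. Coding windows under regions had median ratios of 0.862, 0.840 and 0.817, against 0.376 in coding windows without a region. Of these coding windows, 88.4%, 86.8% and 84.7% under regions and 34.2% without had a ratio of at least 0.6. Higher CpG content under regions was thus not particular to lncRNA promoters.

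The E-box was present in 7 of 21 windows in replicate 1 (33.3%, 17.2 to 54.6), 7 of 50 in replicate 2 (14.0%, 6.95 to 26.2) and 25 of 216 in replicate 3 (11.6%, 7.96 to 16.5). The share was 5.41% (5.00 to 5.86) in lncRNA windows without a region and 7.15% in all 32851 windows. This hexamer itself holds a CpG, and windows with a CpG ratio of at least 0.6 were also counted, a split chosen after seeing the data. Among these the E-box was present in 38.9%, 21.9% and 17.6% under regions (20.3 to 61.4, 11.0 to 38.8 and 11.8 to 25.5) and in 8.22% (6.71 to 10.0) without a region. Windows of coding promoters under regions held it in 46.4%, 23.3% and 13.1%. The share was thus highest in the shortest list for both kinds of gene.

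Either RUNX hexamer was present in 3 of 21 windows (14.3%, 4.98 to 34.6), 13 of 50 (26%, 15.9 to 39.6) and 50 of 216 (23.1%, 18.02 to 29.2), against 24.1% (23.3 to 24.9) in lncRNA windows without a region, 24.2% in the CpG-rich ones of these and 22.4% in all windows. The intervals of all 3 replicates include the share of windows without a region. Counted apart, TGTGGT was present in 9.52%, 16% and 14.4% under regions against 20.7% without, with the interval of replicate 3 below it. TGCGGT was present in 4.76%, 12% and 9.72% against 4.05%, with intervals above it in replicates 2 and 3. In CpG-rich windows under regions, either hexamer was present in 16.7%, 31.25% and 21.0%. There TGTGGT had 11.1%, 15.6% and 10.9% against 13.9%, and TGCGGT 5.56%, 15.6% and 10.9% against 11.8%. These CpG-rich intervals all include the share without a region. Letters in a window of 300 bases do not show where a factor binds, and wide regions extend well beyond the window.

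**Figure D5:**
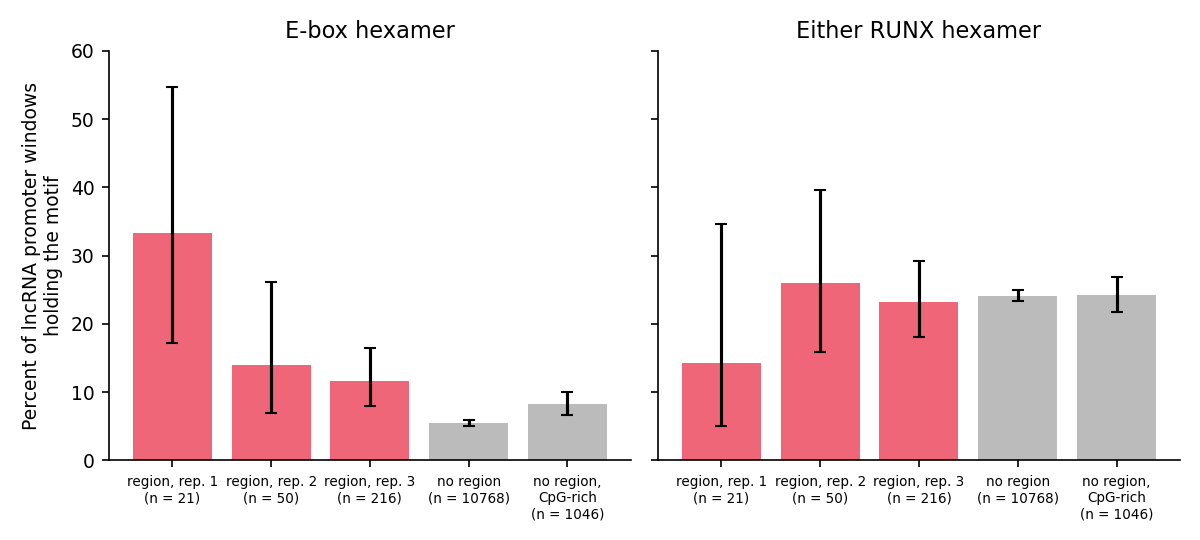
The percent of lncRNA promoter windows holding the E-box (left) or either RUNX hexamer (right) is shown for windows under regions of replicates 1, 2 and 3 and for windows without a region, all of them or the CpG-rich ones, with 95% Wilson intervals of counting error. The E-box share is 33.3%, 14.0% and 11.6% under regions against 5.41% without, and the RUNX share is 14.3%, 26% and 23.1% against 24.1%.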

How the data were processed

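Runx1 ChIP-seq regions of 3 replicates of 1 group were used. Per the submitters' processing notes, MACS2 2.1.2, Bowtie2, Picard 2.18.26, SAMtools 1.9, FastQC and Trimmomatic 0.38 were used with GRCm38; settings and the control library: not given in the sources used here. Peaks were called per replicate by the authors, who deposited for each summit its −log10 p, −log10 q, score and a ratio, the fold over background. The authors' annotated tables give each region's class, distance to a start, gene and biotype. No deposited −log10 q was under 2.00.

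Regions were counted once with the fold of their strongest summit, and starts are given from 1. Pileup and background were solved from fold and −log10 p under a Poisson model, to within 0.001 for 100% of summits. These gave the counting intervals and, with the width of the narrowest region, the estimate of relative depth. Coding starts came from RefSeq promoter windows (GRCm38.p6, 300 bases), and, for genes without a window, from RefSeq gene ends with the strand of the deposited tables, together for 18818 of 21900 coding genes. Windows of chromosome 18 were not used here, so the sequence shares leave it out. Symbols of members matched RefSeq in 69.6%, 67.1% and 60.1% of cases in replicates 1, 2 and 3. Shares have 95% Wilson intervals, and differences were tested over replicates with exact sign-flip permutation tests.

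The members and lists were chosen with earlier results of these data known. Named genes were up to 15 found in all 3 replicates by lowest percentile of fold, the 8 of highest fold and 5 widest regions of replicate 3, up to 4 per list, up to 5 missing by name from replicate 3, the 2 regions on each side of the 1 kb limit, and their nearest coding genes. Not every nearest coding gene is named. Alternatives were −log10 q or fold of at least 5, no TEC loci, other rules of overlap and distance, every summit counted, and leaving out each replicate. The scripts were tested on simulated data. Computation used scipy 1.17.1, pandas 2.3.3, numpy 2.4.6 and matplotlib 3.10.9 under Python 3.11.15.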

Additional observations from a re-analysis of the deposited data

How the results depend on the processing

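Of 63 alternatives run on 9 results, 42 were counted as the same, 13 moved a value and 8 reversed the sign of a difference. The cause was not tested. A difference was counted as the same where its sign was kept, whatever its size. The width difference, for example, was 0.42 with fold of at least 5 against 0.07 in the main setting. Requiring −log10 q of at least 5 left 377 members in replicate 3 and 9 genes in all replicates, a share at a coding start of 22.2% and a sharing difference of -0.192 points. A fold of at least 5 left 129 members and 7 genes, with 11.3% at a coding start and a near minus far log2 fold of 0.0026. Counting every summit gave 1235 in replicate 3. Overlap of 50% of both regions gave a sharing difference of -8.96 points and 23.3% of replicate 2 found in replicate 3, and summits within 200 bp gave -7.53 points and 43.8%. The share at a coding start was 12.9% within 250 bp, 33.2% within 2000 bp, 22.6% from the strongest summit and, with coding transcript starts of the deposited tables (chosen after seeing the data), 30.0%.

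The mean difference in log2 fold from coding promoters, close to 0, became -0.011 without TEC loci, -0.024 among regions with 1 summit and -0.025 within 5 classes of width, the last chosen after seeing the data. It was 0.024 with −log10 q of at least 5, 0.048 with fold of at least 5 and 0.036 without a coding start within 1 kb. Leaving out each replicate gave -0.022 (without replicate 2) to 0.020 for this difference, 0.02 to 0.14 for width, 1.63 to 2.69 points for sharing, 25.4% to 27.3% at a coding start, -0.12 to -0.04 for near minus far, and 10.4% to 13.7% for the share of promoter regions. No comparison between groups was possible because the series has 1 group. The sign-flip tests used differences taken within each replicate. The 3 replicates cannot give a p under 0.25, and the depth of the libraries is known only as a rough relative estimate.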
